A study of Mus musculus with 12 samples.

Results

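Btg2, Dusp1, Zfp36, Zfp36l1, Zfp36l2, Ier2, Ier3, Ier5 and Csrnp1 are immediate early genes whose products limit signalling, growth or the life of messenger RNA. These 9 genes were taken by symbol from a table of 47643 gene identifiers, and all 9 were found. Of them 7 had enough reads to be tested among the 6676 genes tested. They were measured in the gastrocnemius, the large calf muscle, of 6 female C57BL/6J mice aged 11 weeks, of which 3 were labelled control and 3 as over-expressing Myc, the c-myc transcription factor of growing cells. From each mouse both legs were sequenced, the left at rest and the right after acute contraction, so the 12 libraries formed 4 groups of 3, and contraction cannot be told apart from body side. The means of over-expressing Myc, the cells in which it was done, and the time between contraction and sampling are not given in the sources used here. The comparisons asked how contraction changed these genes in each genotype, how Myc changed them in each leg, and whether the response to contraction differed between genotypes.

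Immediate early genes are transcribed within minutes of a stimulus by factors that the cell already holds, without new protein synthesis. Many of them encode transcription factors, and another set encodes proteins that bring the response to an end. DUSP1 is a phosphatase that inactivates the MAP kinases p38, JNK and ERK. ZFP36, ZFP36L1 and ZFP36L2 bind AU-rich elements in 3' untranslated regions (UTRs) and recruit the CCR4-NOT complex, which removes the poly(A) tail and starts decay of the transcript. BTG2 is an antiproliferative protein that binds the deadenylase subunits of the same complex. IER2 and IER5 are related nuclear proteins, and IER5 modulates heat shock factor HSF1. IER3 is a stress-induced regulator of cell survival, and CSRNP1 is a nuclear DNA-binding protein first described as induced by AXIN1.

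The libraries held 1371732 to 1643216 reads each, counted from the 3' ends of transcripts. A level is given in CPM, reads scaled to a common library total, and 1 read was worth 0.601 to 0.775 CPM. Levels of different genes were not compared, since tags per gene were not scaled by length. Mitochondrial transcripts took 27.1 to 35.2% of reads. All 10 markers of skeletal muscle fibres had reads, with a summed level of 104854 to 132886 CPM. Myc itself was read first as a check of the labels. At rest, Myc had 0, 1 and 0 reads in control animals 1, 2 and 3, and 11, 9 and 9 in Myc animals 1, 2 and 3. After contraction it had 1, 10 and 59 reads in the libraries labelled control, against 32, 0 and 2 in those labelled Myc. The Myc reads of the 4 contracted libraries numbered 2 and 3 thus go against their genotype labels. Whether contraction itself raised Myc in control animals 2 and 3 was not tested. The members' fitted changes and the list counts are therefore also given without those 4 libraries. That leaves 1 contracted library per genotype, so a value within a genotype then compares 1 library with 3, and its spread is taken from the other groups. A 3' tag can miss a transgene that lacks the end of the normal transcript, so this check is incomplete.

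With contraction, averaged over both genotypes, 4 of the 7 tested genes rose and none fell. Btg2, Ier5 and Csrnp1 rose several-fold in both genotypes, and Dusp1 rose by less, passing in the Myc animals and not in the control animals. Zfp36, Zfp36l1 and Ier3 had positive values that did not pass the test. Of all genes tested, 5.71% rose at the same threshold, an adjusted p under 0.05 in edgeR's quasi-likelihood test with Benjamini-Hochberg adjustment over all 6676 genes. The median log2 change was 0.63 over the 7 genes and -0.0034 over all genes tested. In 3 of the 7 genes, Btg2, Ier5 and Csrnp1, every contracted library was above every uncontracted one, against 2.94% of all genes. Csrnp1 passed the low-count filter only through its contracted libraries, so its place in these counts was partly fixed by that filter. Zfp36, with 2 uncontracted and 5 contracted libraries over the minimum, also needed its contracted ones to pass the filter. In bulk muscle, fewer cells of a type and less RNA per cell cannot be told apart.

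**Figure D1:**
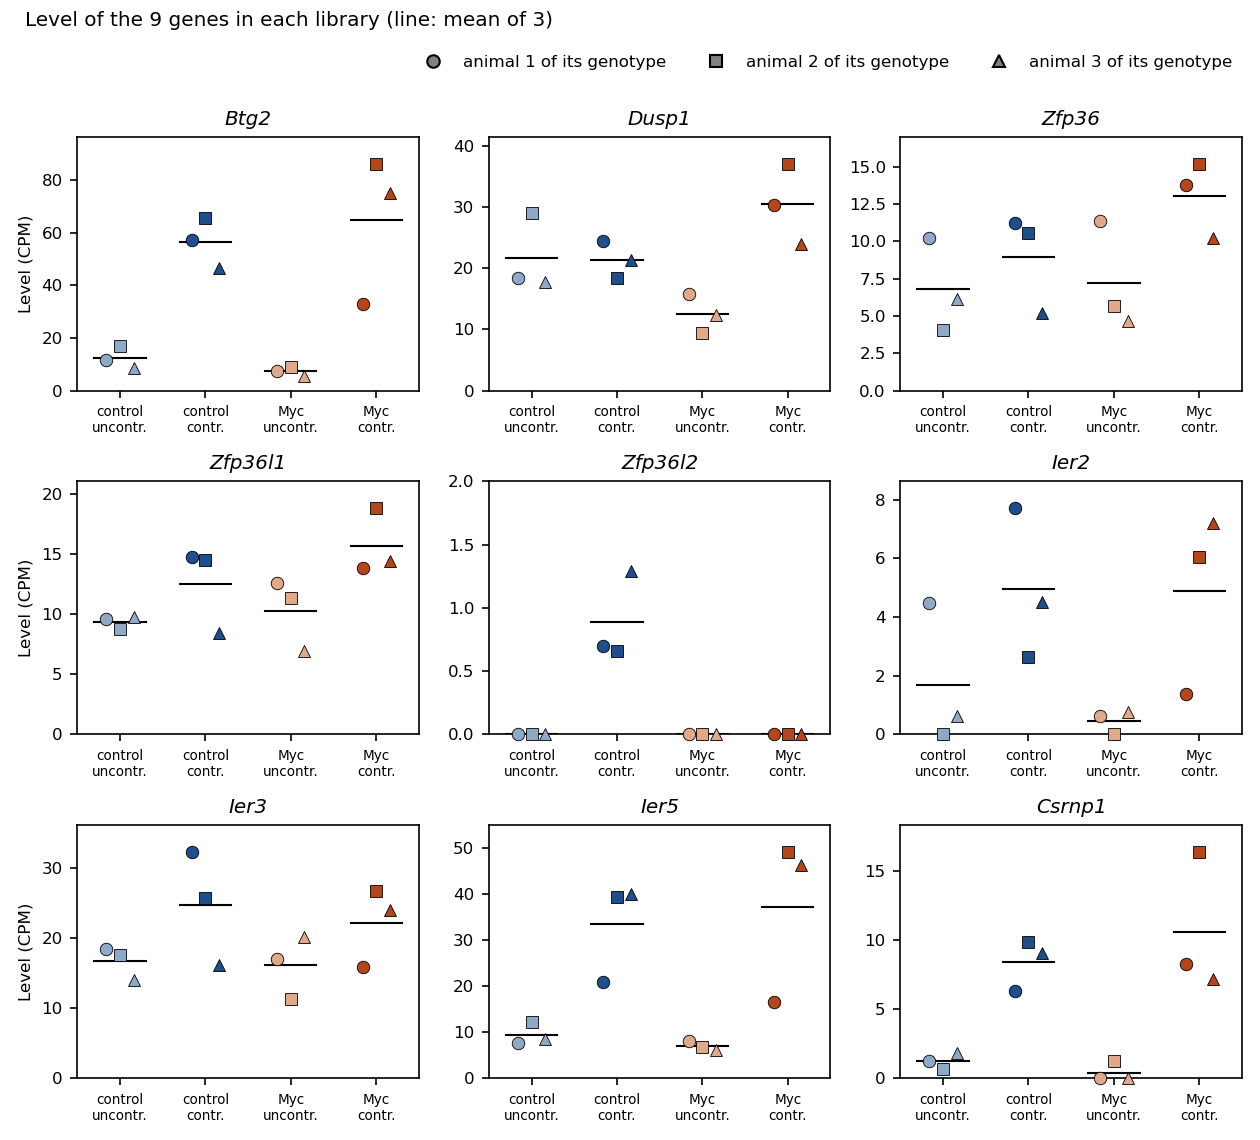
Level of each of the 9 genes in CPM (vertical axis, linear, from 0) in the 4 groups of 3 libraries, with 1 marker shape per animal of a genotype and a line at the group mean. The contracted libraries of Btg2, Ier5 and Csrnp1 lie above all uncontracted ones, Dusp1 separates the legs only in the Myc animals, and Zfp36l2 is at 0 in 9 of 12 libraries.

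Btg2 rose in every animal. In the control animals 1, 2 and 3 its level was 11.5, 16.9 and 8.55 CPM in the uncontracted leg and 57.4, 65.8 and 46.6 CPM in the contracted leg. In the Myc animals it was 7.56, 8.79 and 5.42 CPM uncontracted and 33.1, 86.1 and 75.1 CPM contracted. Every contracted library stood above every uncontracted one, and the contracted library of Myc animal 1 was the lowest of the 6. The means over the legs were 9.78 ± 3.98 CPM and 60.7 ± 19.2 CPM (SD, n = 6 each). The fold change was 6.37 (95% interval 4.57 to 8.88), with an edgeR adjusted p of 4e-08. The rise was 2.21 ± 0.31 (log2, SE) in control animals (adjusted p = 0.000114) and 3.13 ± 0.34 in Myc animals (adjusted p = 2.45e-06), both in edgeR. Without the 4 libraries that go against their labels it was 2.20 ± 0.24 (adjusted p = 2.15e-06).

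The gene lies on the minus strand at chr1:134075170-134079120 (GRCm38, which is mm10; GENCODE M21) and has 2 exons. Its promoter is shown because it holds a complete cyclic AMP response element, the letters TGACGTCA to which CREB binds, at -166 to -159 from the start. The sequence runs from 250 bases before to 50 after the start (RefSeq, GRCm38.p6, chr1:134079106-134079405, minus strand), with the element in capitals.

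Btg2: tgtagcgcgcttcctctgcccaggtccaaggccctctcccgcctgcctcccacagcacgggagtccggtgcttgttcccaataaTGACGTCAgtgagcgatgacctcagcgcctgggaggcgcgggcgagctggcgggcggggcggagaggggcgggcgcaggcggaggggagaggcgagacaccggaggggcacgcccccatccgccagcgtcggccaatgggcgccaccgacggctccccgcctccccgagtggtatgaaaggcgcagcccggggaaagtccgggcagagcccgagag

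TGACGTCA was found in 1.79% of 32851 promoters of the same length, searched on both strands, and in 2 of the 7 members with a promoter entry. The other is Dusp1, whose values follow.

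Dusp1 rose in the animals labelled Myc and had a value near 0 in those labelled control, and the difference between them did not pass its own test. In the control animals its level was 18.5, 29.0 and 17.7 CPM uncontracted and 24.5, 18.4 and 21.3 CPM contracted, and the legs overlapped. In the Myc animals it was 15.8, 9.42 and 12.4 CPM uncontracted and 30.4, 37.0 and 24.0 CPM contracted, with every contracted library above every uncontracted one. Control animal 2 was the only one of 6 in which the contracted leg was lower. The log2 change was -0.01 ± 0.25 in control animals (95% interval -0.54 to 0.51) and 1.28 ± 0.26 in Myc animals (edgeR adjusted p = 0.00436). Averaged over both it was 0.63 ± 0.18, a 1.55-fold rise (adjusted p = 0.0357). That call was the least secure of the 4. Without the 4 doubted libraries the averaged value was 0.73 (adjusted p = 0.262) and the value in Myc animals, now with 1 contracted library, 1.29 (adjusted p = 0.121). It was also lost with the animal as a replicate block (0.64, adjusted p = 0.0615) and in DESeq2 (0.63, adjusted p = 0.0886). Leaving out 1 library ended it for 7 of the 12 (uncontracted and contracted control 1, uncontracted and contracted control 3, uncontracted and contracted Myc 2, and uncontracted Myc 3), at adjusted p of 0.0675 to 0.121 in edgeR. Within Myc animals the call was lost without uncontracted library 2 (1.10, adjusted p = 0.0535).

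The Dusp1 gene is annotated at chr17:26505590-26562128 on the minus strand (GRCm38, GENCODE M21). It shares 640 bases with Ergic1 on the opposite strand, which had 554 reads over all libraries. The strand setting of the counting is not given in the sources used here, so reads in the shared stretch cannot be told apart. The Dusp1 promoter (RefSeq, GRCm38.p6, chr17:26508423-26508722, minus strand) is shown with its matches in capitals. It holds TGACGTCA at -143 to -136, a second copy of the shorter core TGACG, and the E-box CACGTG, to which MYC and related factors bind, at -126 to -121.

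Dusp1: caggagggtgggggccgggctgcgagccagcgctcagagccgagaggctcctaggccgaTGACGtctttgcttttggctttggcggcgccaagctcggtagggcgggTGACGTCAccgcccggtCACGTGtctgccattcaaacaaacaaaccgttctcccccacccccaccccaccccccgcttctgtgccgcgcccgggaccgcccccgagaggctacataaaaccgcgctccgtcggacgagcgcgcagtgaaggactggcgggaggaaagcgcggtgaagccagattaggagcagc

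The core TGACG, which lies within TGACGTCA, was in 20.8% of all promoters and in 3 members, Btg2, Dusp1 and Csrnp1. The 7 members have 10 promoter entries, of which 4 are of Csrnp1, and 6 of the 10 held the core. Csrnp1 thus had more chances of a match than the other members. The E-box CACGTG was in 7.15% of all promoters and in Dusp1 alone among the 7 members. A match is a description of the letters and was not tested as a site.

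The ZFP36 family holds the AU-rich element binding proteins of the list, and no member of it passed the test. Btg2, whose product binds the same deadenylase complex, did pass, as given above. Zfp36, which encodes tristetraprolin, had levels of 10.2, 4.04 and 6.11 CPM in the uncontracted control legs and 11.2, 10.5 and 5.18 CPM in the contracted ones. Myc animals had 11.3, 5.65 and 4.65 CPM uncontracted and 13.8, 15.2 and 10.2 CPM contracted. The legs overlapped in both genotypes, and the contracted leg was higher in 5 of 6 animals, all but control animal 3. The averaged log2 change was 0.60 ± 0.28, which did not pass in edgeR (adjusted p = 0.229), and 0.81 without the 4 doubted libraries (adjusted p = 0.623).

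Zfp36l1 encodes a close relative with the same kind of zinc fingers. It had 9.56, 8.76 and 9.77 CPM in uncontracted control legs, and 14.7, 14.5 and 8.41 CPM in contracted ones. The Myc animals had 12.6, 11.3 and 6.97 CPM uncontracted and 13.8, 18.8 and 14.4 CPM contracted. The legs overlapped in control animals, where animal 3 again went the other way, and did not overlap in Myc animals. The averaged log2 change was 0.50 ± 0.21 (edgeR adjusted p = 0.172), and the change in Myc animals 0.58 ± 0.28 (adjusted p = 0.32). With the 4 doubted libraries left out the averaged value was 0.52 (adjusted p = 0.741). For both genes the averaged 95% interval began just above 0, at 0.02 for Zfp36 and 0.07 for Zfp36l1, and reached 1.18 and 0.93. A log2 change of 1 is therefore within the interval of Zfp36 and above that of Zfp36l1.

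Zfp36l2, the remaining relative, was barely measurable. It had 0 reads in all 6 uncontracted libraries and in the 3 contracted Myc libraries, and 1, 1 and 2 reads in the contracted control libraries. A count of 0 allows up to 3 reads, or 1.80 to 2.32 CPM, and none of the contracted values exceeded that. An exact 2-sided permutation test of the legs over 924 splits gave p = 0.182, and no difference was detectable at this depth.

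ZFP36 proteins bind an AU-rich nonamer, TTATTTATT in DNA letters, and members of the list carry it themselves. The 6 copies found in the longest annotated 3' UTR of each gene (GENCODE M21, GRCm38) are shown with 10 bases on either side and the nonamer in capitals.

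Dusp1 site 1: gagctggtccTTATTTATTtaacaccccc
Dusp1 site 2: gtttttacctTTATTTATTtttgtgtagg
Zfp36: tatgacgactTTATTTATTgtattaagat
Zfp36l1: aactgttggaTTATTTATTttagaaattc
Zfp36l2: actatttaacTTATTTATTatcttgtgaa
Csrnp1: cactctgaatTTATTTATTtttttatgtt

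The nonamer was in 5 of the 9 members and in 7.66% of 21020 genes. Long UTRs hold it more often, and among genes with UTRs of like length the share was 3.79% for Dusp1, 4.11% for Zfp36, 10.1% for Zfp36l1 and 7.59% for Csrnp1. Dusp1 has both of its copies within a UTR of 690 bases. Btg2, Ier2, Ier3 and Ier5 hold none, although Btg2 and Ier3 each hold 5 copies of the shorter pentamer ATTTA. Of the 4 genes that rose, Dusp1 and Csrnp1 thus carry the nonamer and Btg2 and Ier5 do not. Binding of these copies was not measured here.

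**Figure D2:**
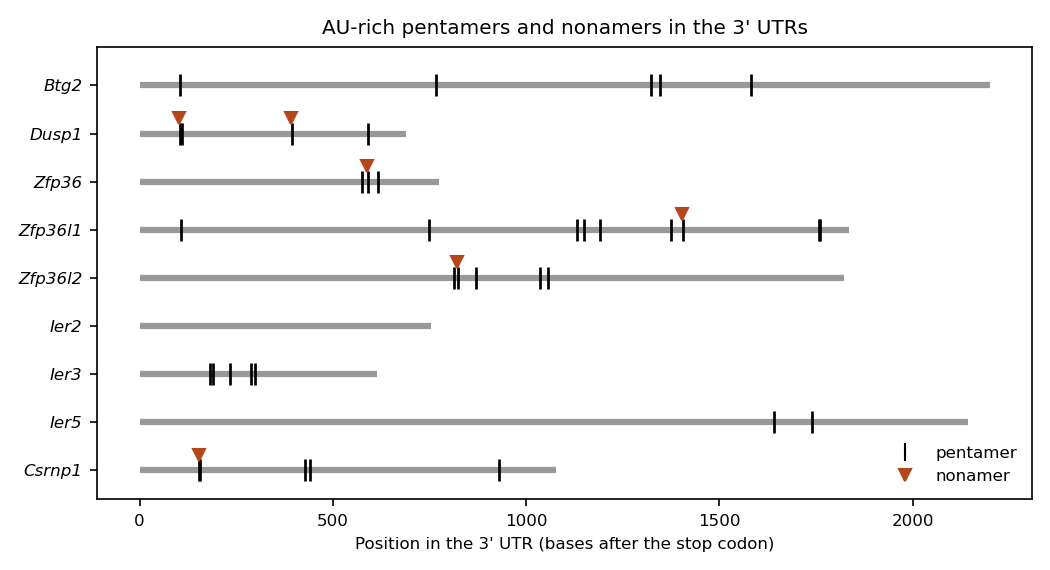
Positions of the pentamer ATTTA (black bars) and the nonamer TTATTTATT (triangles) along the longest annotated 3' UTR of each of the 9 genes (grey line, in bases after the stop codon). Dusp1 carries 2 nonamers in the second shortest UTR of the list, and Ier2 has neither motif.

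The Zfp36 promoter (RefSeq, GRCm38.p6, chr7:28379179-28379478, minus strand) differs from those of Btg2 and Dusp1 in its matches, and is shown for that contrast. It holds a serum response element, also called a CArG box, at -58 to -49, and the EGR motif GCGGGGGCG at -105 to -97, both in capitals.

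Zfp36: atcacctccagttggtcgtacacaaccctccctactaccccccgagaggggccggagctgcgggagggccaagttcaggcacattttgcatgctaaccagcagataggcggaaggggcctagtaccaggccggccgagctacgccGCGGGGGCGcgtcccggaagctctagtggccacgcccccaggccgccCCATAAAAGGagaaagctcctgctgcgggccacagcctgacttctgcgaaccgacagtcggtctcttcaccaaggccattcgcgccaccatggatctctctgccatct

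The serum response element was found in 1.63% of all promoters, and the EGR motif, searched as GCGTGGGCG or GCGGGGGCG, in 3.47%. Among the 7 members each was found in Zfp36 only. TGANTCA, the AP-1 motif, was in 7.81% of all promoters and in 2 of the 10 promoter entries of the members. These were that of Zfp36l1 and entry 4 of Csrnp1. TATAAA was in 13.6% of all promoters and in Zfp36l1. The heat shock element GAANNTTC was in 7.86% of all promoters and in no member, and neither the Ier3 nor the Ier5 promoter held any of the motifs searched.

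Among the IER genes Ier5 rose, Ier2 had a pooled ratio of like size on far fewer reads, and Ier3 did not pass. Ier5 had 7.65, 12.1 and 8.55 CPM in the uncontracted control legs and 21.0, 39.5 and 40.1 CPM in the contracted ones. In the Myc animals it had 8.19, 6.91 and 6.20 CPM uncontracted and 16.6, 49.1 and 46.3 CPM contracted. The legs did not overlap, and within each genotype the contracted library numbered 1 was well below the other 2. The rise was 4.32-fold (95% interval 2.97 to 6.29, edgeR adjusted p = 6.5e-06), with log2 values of 1.83 ± 0.36 in control animals (adjusted p = 0.00402) and 2.39 ± 0.38 in Myc animals (adjusted p = 0.000293). The 4 higher contracted libraries are the same 4 whose Myc reads go against their labels. Without them the averaged value was 1.18 ± 0.28, which still passed (edgeR adjusted p = 0.0269). Within a genotype, where 1 contracted library was then set against 3, it was 1.15 in control (adjusted p = 0.329) and 1.22 in Myc (adjusted p = 0.407), neither of which passed. Ier5 is a gene of 1 exon at chr1:155096361-155099636 on the minus strand (GRCm38, GENCODE M21), so it lies on the same chromosome as Btg2.

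Ier2, a relative of Ier5, had too few reads for the fit. It had 7, 0 and 1 reads in the uncontracted control legs and 11, 4 and 7 in the contracted ones, and 1, 0 and 1 in the uncontracted Myc legs and 2, 10 and 12 in the contracted ones. The contracted leg was higher in all 6 animals, but uncontracted control library 1, at 4.46 CPM, overlapped the contracted range of 1.38 to 7.70 CPM. Over the legs the means were 1.08 ± 1.69 and 4.92 ± 2.54 CPM (SD, n = 6 each, exact unpaired permutation test, 2-sided, p = 0.0173). That test treated the legs of an animal as independent. The ratio of the pooled reads, 46 against 10, was 4.55 after scaling (exact 95% interval 2.27 to 10.1, counting error only). Fitted without the low-count filter, Ier2 rose by 2.37 ± 0.50 on the log2 scale in the average of both genotypes (edgeR adjusted p = 0.000159) and by 3.26 ± 0.79 in Myc animals (adjusted p = 0.00278), and was at 1.48 ± 0.61 in control animals (adjusted p = 0.366). Without the 4 doubted libraries the averaged value was 1.80 and did not pass (adjusted p = 0.803).

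Ier3 was read in every library. It had 18.5, 17.5 and 14.0 CPM in the uncontracted control legs and 32.2, 25.7 and 16.2 CPM in the contracted ones. The Myc animals had 17.0, 11.3 and 20.1 CPM uncontracted and 15.9, 26.7 and 24.0 CPM contracted. The legs overlapped, and Myc animal 1 was the only animal with a lower contracted leg. The averaged log2 change was 0.52 ± 0.20 (95% interval 0.11 to 0.93), which did not pass in edgeR (adjusted p = 0.125). It passed without contracted control library 3 (0.64, adjusted p = 0.0492) and without contracted Myc library 1 (0.61, adjusted p = 0.0448). Leaving out the 4 doubted libraries gave 0.475 (adjusted p = 0.708).

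Csrnp1 was nearly silent in the uncontracted legs. It had 2, 1 and 3 reads in the uncontracted control libraries and 9, 15 and 14 in the contracted ones, or 1.27, 0.674 and 1.83 CPM against 6.30, 9.87 and 9.06 CPM. In the Myc animals it had 0, 2 and 0 reads uncontracted and 12, 27 and 12 contracted, or 0, 1.26 and 0 CPM against 8.28, 16.4 and 7.21 CPM. No uncontracted library reached the lowest contracted one in either genotype. The averaged rise was 11.3-fold (95% interval 5.82 to 22.0, edgeR adjusted p = 1.61e-05), with log2 values of 2.65 ± 0.59 in control animals (adjusted p = 0.0123) and 4.35 ± 0.70 in Myc animals (adjusted p = 0.00036).

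The size of the Csrnp1 rise in Myc animals rests on 2 uncontracted reads. The pooled counts were 51 against 2, a ratio of 23.9 with an exact 95% interval of 6.29 to 203, and in control animals 38 against 6, a ratio of 6.61 with an interval of 2.77 to 19.1. Leaving out 1 Myc library at a time, other than uncontracted library 2 which held both reads, moved the ratio between 15.4 and 28.1. Without that library no uncontracted Myc read was left, no ratio is given, and the fitted averaged log2 value went from 3.50 to 4.85, which then depends on the prior count and is no bound. Without the 4 doubted libraries the averaged log2 value was 3.11 ± 0.73 (edgeR adjusted p = 0.0261), and within a genotype, again 1 contracted library against 3, it was 2.23 in control (adjusted p = 0.752) and 4.0 in Myc (adjusted p = 0.117), neither of which passed. In control animals the call was also lost without uncontracted library 1 or 2 or contracted library 2 or 3, at adjusted p of 0.0518 to 0.0726. Csrnp1 has 5 exons at chr9:119971163-119984658 on the minus strand and lies wholly within the extent of Cx3cr1 on the same strand (GRCm38, GENCODE M21). Cx3cr1, a chemokine receptor gene of macrophages and microglia, had 39 reads over all libraries.

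**Figure D3:**
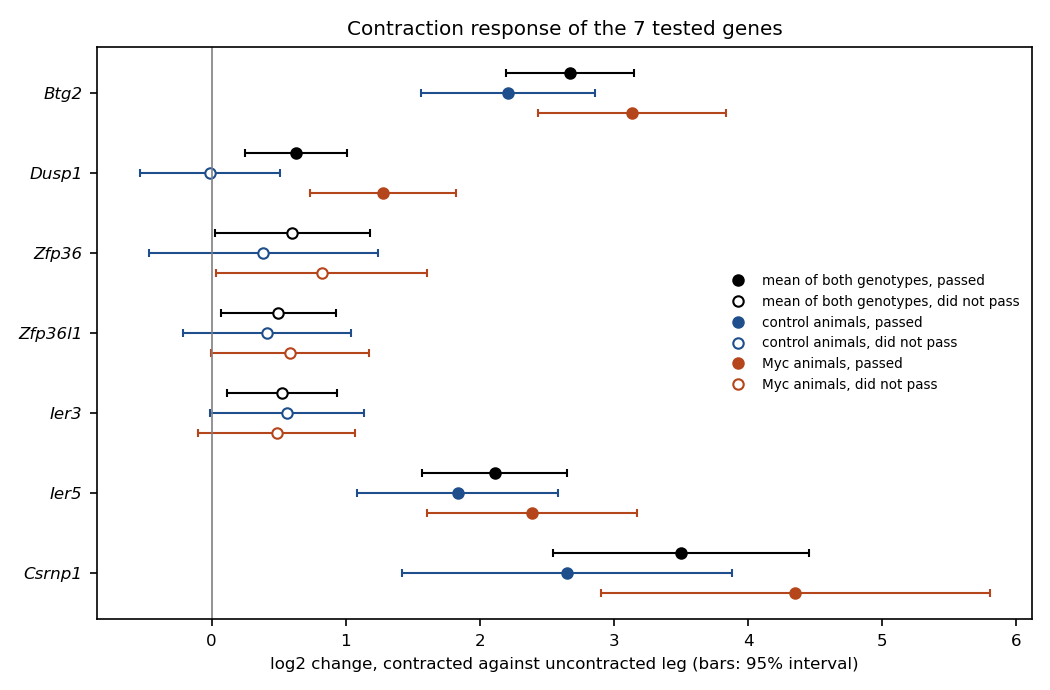
Log2 change of the 7 tested genes in the contracted against the uncontracted leg (horizontal axis), averaged over genotypes (black), in control animals (blue) and in Myc animals (orange), with 95% intervals. Filled points passed at an adjusted p under 0.05 in edgeR. The intervals of Btg2, Ier5 and Csrnp1 lie above 1 in every contrast, and the control value of Dusp1 is at -0.01.

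In control animals alone 3 of the 7 tested genes rose, against 2.38% of all genes tested, and in Myc animals alone 4 rose, against 3.45%. In 3 of 7 the control legs did not overlap, with the contracted leg higher, against 9.68% of all genes. In Myc animals 5 of 7 did so, against 10.3%. The gene that made the difference between the 2 counts of rising genes was Dusp1. Without the 4 libraries that go against their labels, 3 genes passed in the average of both genotypes, Btg2, Ier5 and Csrnp1, against 1.32% of all genes, and within either genotype, with 1 contracted library each, Btg2 alone passed.

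The difference between the responses was tested as an interaction, contraction in Myc minus contraction in control. No member passed in edgeR, and 0.00% of all genes did, with 331 of 6676 at an unadjusted p under 0.05 and none called by DESeq2. Dusp1 had the smallest p of the members, a difference of 1.29 ± 0.36 (log2, 95% interval 0.53 to 2.05, adjusted p = 0.854 in edgeR), and its unadjusted p was under 0.05 and ranked 9 of 6676. For Btg2 the difference was 0.93 ± 0.50 and for Csrnp1 1.70 ± 1.14, the latter moving to 4.39 without uncontracted Myc library 2, which held the only uncontracted Myc reads of that gene. The other 4 genes lay between -0.08 for Ier3 and 0.55 for Ier5. With the 4 doubted libraries left out, so that 1 contracted library per genotype carried it, the difference was 1.11 for Dusp1, -0.0518 for Btg2, 1.77 for Csrnp1, 0.069 for Ier5, 0.211 for Zfp36, -0.228 for Zfp36l1 and -0.936 for Ier3, and none passed. A different response in Myc animals was therefore not shown for any of the 7 genes tested. Ier2 and Zfp36l2 were not in that fit.

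Myc against control was compared directly within each leg. In the uncontracted leg no member passed in edgeR, and 0.00% of all genes did, with 421 of 6676 at an unadjusted p under 0.05 and 1 called by DESeq2, which was no member. Dusp1 was the only member at an unadjusted p under 0.05. Its mean was 21.7 ± 6.30 CPM in control and 12.5 ± 3.17 CPM in Myc (SD, n = 3 each), a log2 difference of -0.78 (95% interval -1.35 to -0.21, edgeR adjusted p = 0.564). Its 2 groups did not overlap, as was the case for 12.9% of all genes. For Btg2 the difference was -0.72 (-1.61 to 0.17), and for Csrnp1 -1.36 (-3.57 to 0.85), which was -4.06 without uncontracted Myc library 2.

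In the contracted leg again no member passed in edgeR, and 0.00% of all genes did, with 204 of 6676 at an unadjusted p under 0.05 and none called by DESeq2. Dusp1 averaged 21.4 ± 3.04 CPM in control and 30.5 ± 6.47 CPM in Myc (SD, n = 3 each), a log2 difference of 0.51 (95% interval 0.01 to 1.01, adjusted p = 0.999). The lowest Myc library, at 24.0 CPM, was just below the highest control library, at 24.5 CPM. Btg2 averaged 56.6 ± 9.63 and 64.8 ± 27.9 CPM, a log2 difference of 0.21 (-0.31 to 0.73). This comparison uses the 4 libraries whose Myc reads go against their labels, and without them 1 library is left per genotype. For Dusp1 these are control 1 at 24.5 CPM and Myc 1 at 30.4 CPM.

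Each animal gave both legs, so the difference could be read animal by animal, as right minus left leg on the scale of log2(CPM + 2). On this scale changes of low genes are understated. Btg2, Ier2, Ier5 and Csrnp1 were higher in the contracted leg in 6 of 6 animals, and Dusp1, Zfp36, Zfp36l1 and Ier3 in 5 of 6. The animal that differed was control 2 for Dusp1, control 3 for both Zfp36 and Zfp36l1, and Myc 1 for Ier3. The difference ranged over the 6 animals from 1.85 to 3.38 for Btg2 and from 0.86 to 2.56 for Ier5. The median over the 9 genes was 0.587, 1.05 and 0.720 in control animals 1, 2 and 3 and 0.362, 1.77 and 0.877 in Myc animals 1, 2 and 3. Myc animal 2 thus had the highest median and Myc animal 1 the lowest, and both carry the same genotype label.

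**Figure D4:**
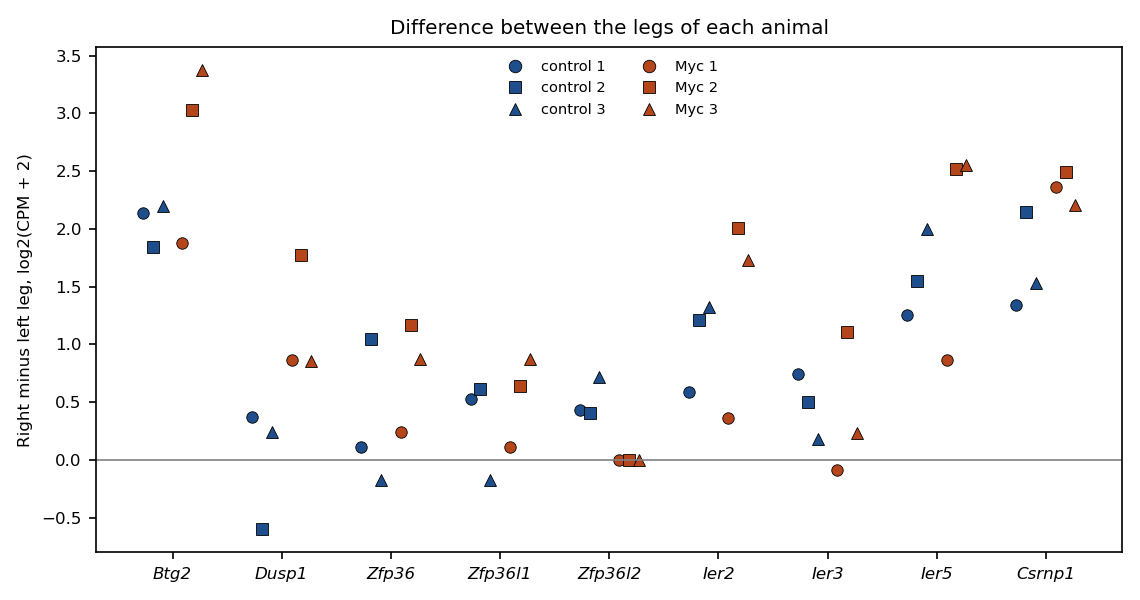
Right (contracted) minus left (uncontracted) leg of each of the 6 animals for the 9 genes, on the scale of log2(CPM + 2), with control animals in blue and Myc animals in orange. All 6 points of Btg2, Ier2, Ier5 and Csrnp1 lie above 0, and the lowest point of Dusp1, at -0.60, is control animal 2.

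The 7 tested genes also varied together. Over the 12 libraries the 21 pairs had Pearson correlations of log2 level from 0.416 to 0.959, with a median of 0.593, and all were positive. These values hold the shared difference between the legs. With group means removed the range was -0.280 to 0.748, the median 0.208, and 18 of 21 were positive. Btg2 and Ier5 were the closest pair in both readings, at 0.959 and 0.748, and Zfp36 and Zfp36l1, both decay factors, were at 0.859 and 0.746. Over the 8 libraries left without the doubted 4, the range was 0.198 to 0.973, the median 0.591, and all 21 were positive. The libraries are the same for all pairs and share their depth, so the correlations are a description.

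Among the other genes with a mean of at least 5 CPM, those most like the mean standardised profile of the members over the 12 libraries were found by Pearson correlation. They were Alpk2 (0.978), Fosl2 (0.956), Azin1 (0.951), Fam43a (0.948), Pdpn (0.944), Txnrd1 (0.938), Myod1 (0.938), Egr1 (0.937), Pde4b (0.934) and Dlg5 (0.933). Fosl2 and Egr1 encode immediate early transcription factors, Myod1 the myogenic transcription factor, Azin1 an inhibitor of antizyme and Txnrd1 a thioredoxin reductase. Over the 8 libraries left without the doubted 4 their correlations were 0.901 to 0.984, and 6 of them were again among the 10 highest. All 10 rose with contraction in edgeR, from a log2 change of 0.83 for Fosl2 to 3.95 for Egr1. The members' mean profile was itself higher in every contracted library, so this follows in large part from how the 10 were chosen.

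Most tested genes that share pathways with the members did not pass. Of the other MAP kinase phosphatases, the relatives of Dusp1, 5 of 11 were tested and none passed, with a median log2 change of -0.03. The rest were below the low-count filter. In uncontracted and contracted legs, Dusp2 had 8 and 48 reads, Dusp5 6 and 31, and Dusp10 16 and 29. Dusp7 went the other way, at 52 and 40, while Dusp4 had 2 and 2 and Dusp9 0 and 0. Of 16 tested MAP kinases and their partner kinases 1 rose, Rps6ka3, the kinase RSK2, at 1.18 ± 0.24 (edgeR adjusted p = 0.00279), and the median was -0.12. The other BTG and TOB genes, relatives of Btg2, had 2 tested members, Tob1 at 0.07 ± 0.24 and Tob2 at -0.06 ± 0.26, and neither passed. The 3 other IER and CSRNP genes were all below the filter. Ier5l had 4 uncontracted and 12 contracted reads, Csrnp2 5 and 5, and Csrnp3 0 and 0.

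The machinery that the decay factors recruit also showed few calls. Of 14 tested deadenylase and poly(A)-binding genes 1 rose, Pabpc1, the main cytoplasmic poly(A)-binding protein, at 1.39 ± 0.30 (edgeR adjusted p = 0.00441), and the median was -0.07. Cnot1, the scaffold of the CCR4-NOT complex, was at -0.61 ± 0.20 and did not pass (adjusted p = 0.0735). None of 11 decapping and 5' to 3' decay genes passed. Of 13 other AU-rich and stem-loop binding proteins 1 fell, Tial1, at -0.58 ± 0.17 (adjusted p = 0.0433), and its relative Tia1 was at -0.58 ± 0.20 (adjusted p = 0.087). No gene of the deadenylase, kinase or AU-rich binding lists passed once the 4 doubted libraries were left out.

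Other feedback inhibitors came closer to the members. Of 10 tested 4 rose and none fell, with a median log2 change of 0.46. They were Socs3, an inhibitor of cytokine receptor signalling, at 4.03 ± 0.40 (edgeR adjusted p = 3.13e-07), Spry2, an inhibitor of growth factor receptor signalling, at 1.55 ± 0.23 (adjusted p = 8.83e-05), Errfi1, an inhibitor of the EGF receptor, at 1.33 ± 0.27 (adjusted p = 0.00244), and Cish, another SOCS family gene, at 1.11 ± 0.29 (adjusted p = 0.02). Only 1 of the 10 passed once the 4 doubted libraries were left out.

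The immediate early transcription factors, the activating side of the same response, had 12 of 17 tested genes higher and none lower, with a median log2 change of 1.58. Among them Egr1 rose by 3.95 ± 0.30, Klf6 by 3.11 ± 0.25, Atf3 by 5.07 ± 0.45 and Nr4a3 by 3.50 ± 0.34. Transcripts described as targets of the ZFP36 family, with the members left out, had 7 of 10 tested genes higher and none lower, with a median of 1.05. Those included Fos, which is in both lists, at 5.01 ± 0.65, Pim1, a kinase, at 1.60 ± 0.33, and Hif1a, the hypoxia-inducible factor, at 0.72 ± 0.18. Without the 4 doubted libraries 8 of 15 transcription factors and 1 of 10 described targets passed. These lists were chosen with earlier results of these data known, and against them stands the 5.71% of all genes that rose.

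**Figure D5:**
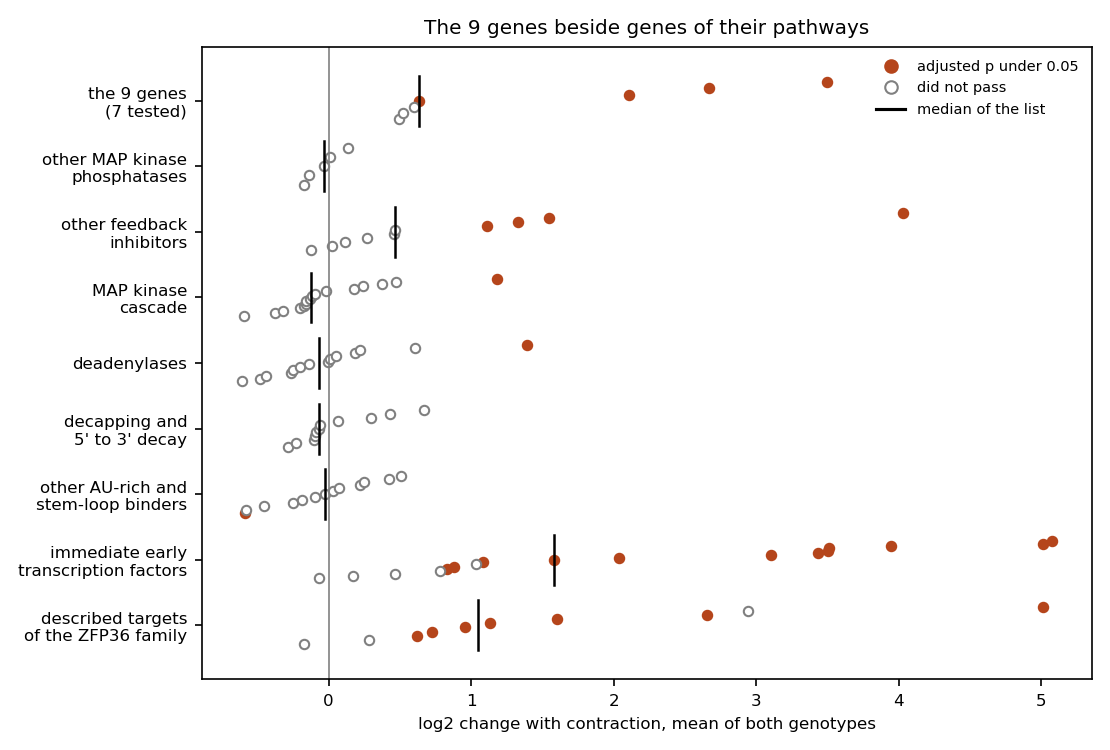
Log2 change with contraction, averaged over both genotypes (horizontal axis), of the tested genes of each list, with filled points for an adjusted p under 0.05 in edgeR, open points for genes that did not pass, and a bar at the list's median. The median is 0.63 for the members, 1.58 for immediate early transcription factors, 0.46 for other feedback inhibitors, and between -0.12 and 0.00 for the kinase, phosphatase, deadenylase, decapping and AU-rich binding lists.

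Markers of other cell types moved with contraction as well. The summed level of 10 neutrophil markers was 0 to 3.67 CPM in uncontracted and 4.85 to 70.5 CPM in contracted libraries, and both tested ones, S100a8 and S100a9, rose by 6.06 ± 0.96 and 5.95 ± 1.06 on the log2 scale (edgeR adjusted p = 0.000249 and 0.000885). S100a8 had 6 uncontracted and 216 contracted reads and S100a9 had 1 and 88, so both needed their contracted libraries to pass the low-count filter. That both tested ones rose was thus partly fixed by that filter, and the sizes rest on those few uncontracted reads. The defining markers Ly6g, Cxcr2 and Csf3r were at 0 reads in all 12 libraries. All 4 tested erythrocyte markers rose, with summed levels of 399 to 1000 CPM against 309.7 to 463. Of 5 tested macrophage markers Cd68 rose and C1qa and Csf1r fell, and of 6 tested smooth muscle markers Acta2 fell. Cd68, with 27 uncontracted and 90 contracted reads, also needed its contracted libraries to pass the low-count filter. With the 4 doubted libraries left out, S100a8, S100a9 and 4 of 5 tested erythrocyte markers passed as higher, and no macrophage or smooth muscle marker passed. None of the tested endothelial, fibroblast, satellite cell, lymphocyte, adipocyte, Schwann cell or muscle fibre markers passed. The part of these cells in the members' values was not tested.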

How the data were processed

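Trizol-extracted RNA was made into QuantSeq 3' mRNA libraries, per the labels' protocols. The authors deposited 1 table of gene counts, which are unscaled whole numbers of reads. Per the submitters' processing notes, the tools were STAR 2.5.2a, HTSeq 0.6.0, FastQC 0.11.5 and SAMtools, and the build mm10, with no role or order given. Annotation release, strand setting and filters are not given in the sources used here, and the table is called modified without saying how. Titles gave genotype, animal number and leg. Labels do not tie animals to litters or days, so p-values measure the spread between these animals only.

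All 12 libraries, as 4 group means, were fitted with edgeR 4.0.16 in R 4.3.3 by the quasi-likelihood F test (2-sided), after TMM scaling and the filterByExpr filter at a minimum count of 10, with Benjamini-Hochberg adjustment over 6676 genes at 0.05. An SE is the size of the log2 change divided by the square root of F. The filter asked for 6.55 CPM in 3 libraries and removed Ier2 and Zfp36l2. These were compared between legs by an exact permutation test over libraries, which did not use the pairing of legs. Intervals for pooled reads are exact at 95% and, like the limit of 3 reads for a count of 0, cover counting error only. Motifs were searched on both strands of RefSeq promoters (7 of 9 members, not Ier2 and Zfp36l2) and in the longest 3' UTR per gene from GENCODE M21. The script was tested on simulated data.

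All 9 members are named throughout, and up to 4 genes per list by smallest p, some of which, picked with their values in view, are given. Members and lists were chosen with earlier results of these data known. Likeness is the correlation of log2(CPM + 2) with the mean standardised level of the members tested, over named genes with a mean of at least 5 CPM. Titles also pair the 2 legs of an animal. Across 2931 genes, the deviations of paired legs from their group means had correlations of -0.226 to 0.236. Alternatives were other scalings, DESeq2 1.42.0, other filters, leg alone, each library left out, without the 4 doubted libraries, and the animal as a fixed block or, with limma 3.58.1, a random one. List counts, pair correlations and likeness without those 4 were added after seeing the data.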

Additional observations from a re-analysis of the deposited data

How the results depend on the processing

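Of 800 alternatives for single members over the 6 comparisons, 749 kept direction and side of the threshold, 22 lost the call, 2 gained it and 27 changed sign. The calls of Btg2 and Ier5 in the averaged contrast held in every alternative run. Without the 4 doubted libraries the genes that passed fell to 107 (averaged), 67 (control) and 59 (Myc), with 1 member in control and 1 in Myc, and were 6 for Myc against control uncontracted. With no filter they were 305 in control, 433 in Myc, 24 and 5 for Myc against control uncontracted and contracted, and 18 for the interaction, and DESeq2 called 1 for Myc against control uncontracted. Leaving out 1 library gave 350 to 723 genes (averaged), 116 to 313 (control, without contracted 3 and 1), 147 to 517 (Myc, without contracted 3 and 1, with 152 without contracted 2, and 151 and 173 without uncontracted 2 and 3), 0 to 2 and 0 to 0 for Myc against control uncontracted and contracted, and 0 to 4 for the interaction. Members that passed were then 3 to 6, 2 to 3 and 3 to 5 in the contraction contrasts and 0 in the others. Dusp1 in control was 0.0252 with library totals and 0.175 without the 4 libraries. Without those 4, Myc against control contracted was -0.775 for Btg2, -0.0737 for Zfp36l1 and -0.324 for Ier5, and the interaction -0.0518 for Btg2 and -0.228 for Zfp36l1. Over libraries left out 1 at a time, Dusp1 in control ran from -0.14 to 0.23. Myc against control uncontracted ran from -0.38 to 0.51 for Zfp36, -0.0085 to 0.33 for Zfp36l1 and -0.25 to 0.15 for Ier3. In the contracted leg it ran from -0.048 to 0.51 for Btg2, -0.37 to 0.085 for Ier3, -0.090 to 0.50 for Ier5 and -0.13 to 0.56 for Csrnp1, and the interaction from -0.051 to 0.33 for Zfp36l1 and -0.31 to 0.15 for Ier3. The cause was not tested.

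With the animal as a replicate block, the paired fit called 443 genes in the averaged contrast, and the averaged Dusp1 call (0.64, edgeR adjusted p = 0.0615) was the only call of a member that it changed. The stricter filter left Csrnp1 and Zfp36 out. Depth limits Zfp36l2 (0 to 2 reads per library), Ier2 (0 to 12) and uncontracted Csrnp1 (0 to 3).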

Other observations

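Outside the 9 members, the nonamer TTATTTATT was present in the longest 3' UTR of 490 of the genes tested and absent from 6016. With contraction averaged over both genotypes, 42 of the 490 rose (8.57%) and 5 fell (1.02%), and 323 of the 6016 rose (5.37%) and 105 fell (1.75%). Genes with the nonamer have longer UTRs, with a median of 2421 bases against 1112. The genes were also split into 3 classes of equal size by UTR length. In the shortest, 1 of 37 with the nonamer rose (2.7%), against 94 of 2132 without it (4.41%). In the middle class 20 of 145 rose (13.8%) against 111 of 2023 (5.49%). In the longest, 21 of 308 rose (6.82%) against 118 of 1861 (6.34%). The shares lay furthest apart in the middle class, and the lower share with the nonamer in the shortest rests on 1 gene. These counts are a description of genes that share libraries, and no test was made of them.

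The contracted library with the most Myc reads in each genotype, control 3 with 59 and Myc 1 with 32, was also the one with the lowest contracted Btg2 level in its genotype, 46.6 and 33.1 CPM. This pair of values was chosen after they were seen, and the relation was not tested. The other genes that rose did not share it. Contracted Ier5 was highest of its genotype in control 3, at 40.1 CPM, and lowest in Myc 1, at 16.6 CPM. Contracted Dusp1 and Csrnp1 were lowest of their genotype in neither library.

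With group means removed, the genes most like the members' mean profile were Arf4 (Pearson correlation 0.903 over 12 libraries), Ptk2 (0.885), Mgst3 (0.875), Psma3 (0.865) and Pcbp2 (0.863). None of these 5 passed for contraction in edgeR, and none is among the 10 genes most like the members over the libraries as they stand.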
